A study of Mus musculus with 6 samples.

Results

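Insulin signalling and insulin-stimulated glucose uptake were followed through 8 genes in floated adipocytes of inguinal subcutaneous white adipose tissue (scWAT): Insr, Irs1, Irs2, Pik3r1, Akt2, Tbc1d4, Slc2a4 and Foxo1. The members were chosen by gene symbol from the 37384 symbols of the count table, and all 8 were found. RNA-seq was done on 6 libraries of male mice at postnatal day 7, each made from adipocytes of 4 pooled mice. The 3 control libraries came from Lats1 f/f Lats2 f/f mice without Cre (L1L2-FF). The other 3 came from mice with the same floxed Lats1 and Lats2 alleles plus Adipoq-Cre (L1L2-AKO), a Cre recombinase driven by the promoter of Adipoq, an adipocyte gene. LATS1 and LATS2 are kinases of the Hippo pathway that restrain the co-activators YAP and TAZ, and the comparison asks how the genes stood when both kinases were targeted in adipocytes.

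Insulin binds its receptor on the fat cell and the receptor phosphorylates docking proteins, chiefly IRS1 and IRS2. These recruit phosphoinositide 3-kinase (PI3K), whose lipid product brings the kinase AKT2 to the membrane. AKT2 then phosphorylates TBC1D4, also called AS160, which releases its hold on the Rab proteins that move GLUT4 vesicles to the cell surface, and it keeps the transcription factor FOXO1 out of the nucleus. GLUT4, the product of Slc2a4, is the transporter through which fat and muscle cells take up glucose after a meal.

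Total counts ranged from 30548473 to 32107917 a library, and the 15674 genes past a low-count filter were tested with edgeR's quasi-likelihood test and Benjamini-Hochberg adjustment over all of them, at a threshold of 0.05. Levels are given as CPM (counts scaled to a common library size with TMM factors), and fold changes as log2 of L1L2-AKO over L1L2-FF with a standard error (SE). The targeted gene Lats1 fell from 82.9 ± 9.90 to 40.2 ± 1.16 CPM (SD, n = 3 libraries a genotype; edgeR adjusted p = 0.00131), whereas Lats2 rose from 76.4 ± 8.68 to 119 ± 20.6 CPM (edgeR adjusted p = 0.0278). The Lats2 count therefore went against the genotype label, so the second group is written below as the libraries labelled L1L2-AKO. A count over a whole gene can include transcripts that lack the deleted exons. The authors report that mRNA of both Lats1 and Lats2 was reduced in scWAT adipocytes of L1L2-AKO males of the same age. Adipocyte markers were present in every library. The summed level of 12 of them was 32433 to 39682 CPM in L1L2-FF, against 28719 to 37334 CPM under the L1L2-AKO label. By edgeR 4 of the 12 (Adipoq, Pparg, Cfd and Retn) fell. The fitted change was lower for 10 of the 12 and higher for 2, at a median log2 fold change of -0.58. Without overlap between genotypes, 8 were lower and 1 was higher. Mean log2 CPM of the markers was 10.71 to 10.94 for L1L2-FF, above the 9.89 to 10.25 of the other genotype. Macrophage markers were higher in 9 of 10, and their summed level was 237 to 458 CPM in L1L2-FF against 837 to 942 CPM in the libraries labelled L1L2-AKO. Of 8 mural and smooth muscle markers, 3 rose (Acta2, Tagln and Notch3) and 2 fell (Rgs5 and Cspg4), with sums of 1489 to 1820 and 1723 to 1958 CPM, and of 8 progenitor and fibroblast markers Col1a1 rose and Pi16 fell, with sums of 5614 to 8758 and 7923 to 9069 CPM. The part of these cells in the results was not tested. In such bulk samples, fewer adipocytes and less RNA of a gene per adipocyte cannot be told apart.

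Of the 8 genes, 3 fell in the libraries labelled L1L2-AKO, 0 rose and 5 did not pass the test by edgeR. The 3 that fell were Slc2a4, Akt2 and Tbc1d4, the transporter, the kinase and the Rab regulator of the uptake branch. Over all tested genes 7.18% were called lower, 9.28% higher and 16.5% in either direction. The receptor, both docking proteins, the PI3K regulatory subunit and FOXO1 had smaller differences. Before adjustment the edgeR p was 0.0437 for Insr, 0.0381 for Pik3r1 and 0.0335 for Foxo1, so these were under 0.05 only unadjusted. The median log2 fold change of the 8 was -0.38, beside -0.02 over all genes tested. The genotypes did not overlap in 6 of the 8 genes, 4 lower and 2 higher in the libraries labelled L1L2-AKO, where 36.4% of all tested genes did not overlap.

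**Figure D1:**
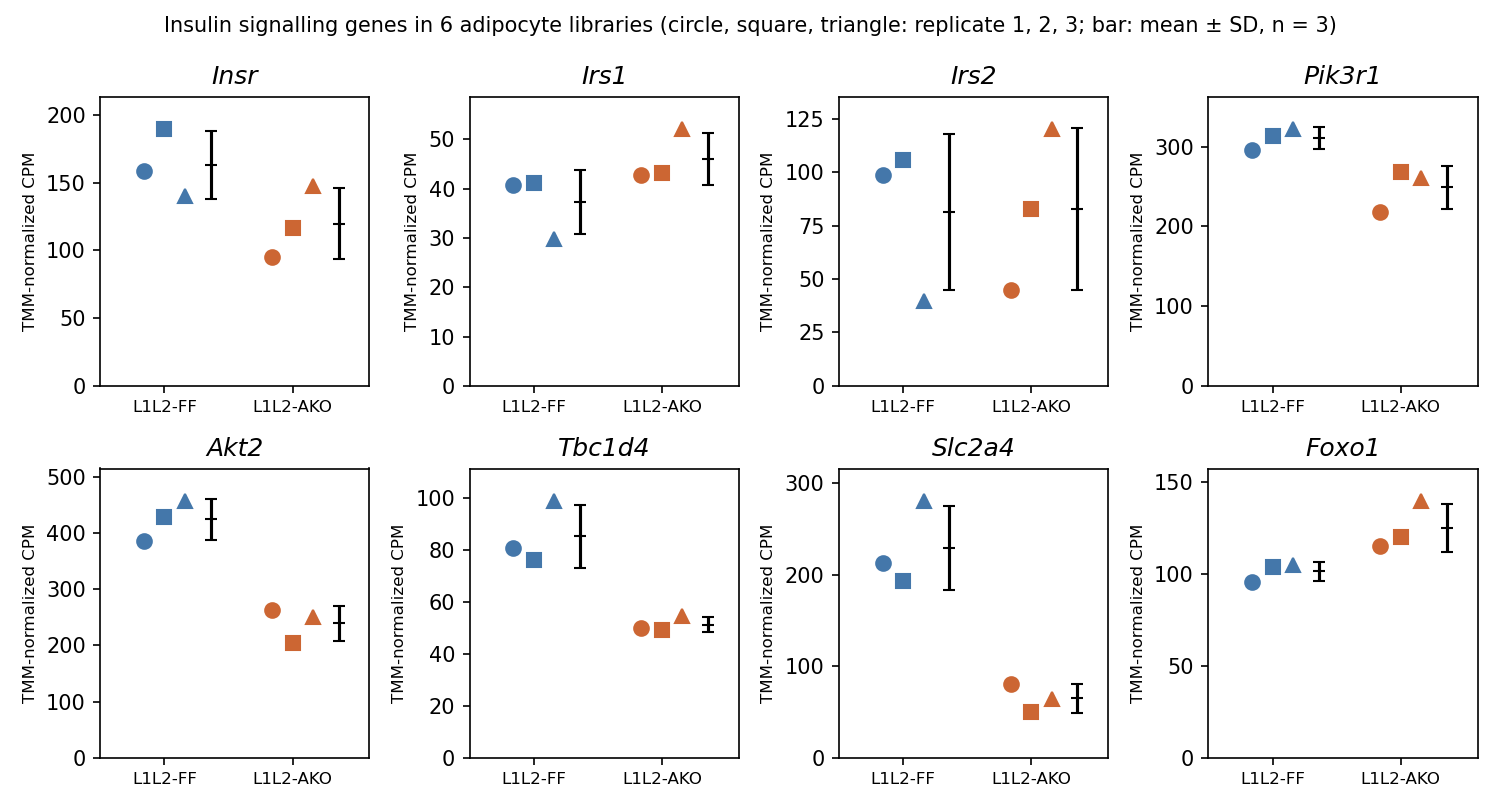
TMM-normalised CPM of each of the 8 genes (y axis, linear, from 0) in each library of L1L2-FF and L1L2-AKO (x axis), with points for libraries and the genotype mean ± SD. The 3 L1L2-AKO points of Slc2a4 lie between 49.8 and 81.0 CPM, below the 193 to 281 CPM of L1L2-FF, while those of Irs2 span nearly the same range in both genotypes.

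Upstream sequence is shown for the 2 called genes with an entry in the RefSeq promoter table, Akt2 and Tbc1d4, and for the docking pair Irs1 and Irs2, which were not called. Each run is the 250 bases before the annotated start in build GRCm38.p6, 5′ to 3′ on the gene's strand. The table had 10 entries for 6 of the 8 genes; Slc2a4 and Insr were without one. Capitals mark the letters of a searched motif, which were GGAATG (the core bound by TEAD factors, the partners of YAP and TAZ), GTAAACA (bound by FOXO factors) and CACGTG (an E-box), on both strands and with no overlap among the matches shown. The windows are chr7:27591302-27591551 (plus strand, Akt2), chr14:101609192-101609441 (minus strand, Tbc1d4), chr1:82291440-82291689 (minus strand, Irs1) and chr8:11008930-11009179 (minus strand, Irs2).
Akt2: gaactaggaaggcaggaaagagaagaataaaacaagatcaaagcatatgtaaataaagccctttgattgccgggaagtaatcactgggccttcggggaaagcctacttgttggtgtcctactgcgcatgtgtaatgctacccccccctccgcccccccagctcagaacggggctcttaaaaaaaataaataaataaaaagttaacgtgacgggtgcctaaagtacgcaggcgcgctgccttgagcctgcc
Tbc1d4: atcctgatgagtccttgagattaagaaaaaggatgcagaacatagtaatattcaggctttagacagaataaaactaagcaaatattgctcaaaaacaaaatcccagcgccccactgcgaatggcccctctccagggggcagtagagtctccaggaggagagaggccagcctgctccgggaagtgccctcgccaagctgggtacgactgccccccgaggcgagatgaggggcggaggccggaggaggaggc
Irs1: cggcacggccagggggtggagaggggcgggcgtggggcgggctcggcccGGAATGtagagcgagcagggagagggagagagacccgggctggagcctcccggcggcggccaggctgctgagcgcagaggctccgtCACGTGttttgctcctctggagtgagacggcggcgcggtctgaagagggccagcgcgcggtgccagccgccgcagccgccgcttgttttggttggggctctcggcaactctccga
Irs2: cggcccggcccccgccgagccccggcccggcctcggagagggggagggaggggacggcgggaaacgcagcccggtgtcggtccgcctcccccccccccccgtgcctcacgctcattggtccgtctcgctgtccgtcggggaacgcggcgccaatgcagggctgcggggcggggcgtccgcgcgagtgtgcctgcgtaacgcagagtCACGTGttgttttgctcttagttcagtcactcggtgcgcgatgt
These Akt2 and Tbc1d4 windows held none of the 3 motifs; of the windows not shown, 1 of another Akt2 start and 1 of Pik3r1 held GGAATG. The Irs1 window held GGAATG at bases -201 to -196 and CACGTG at -115 to -110 from the start, and the Irs2 window held CACGTG at -44 to -39. Among all 32851 promoters of the same length, 12.6% held GGAATG, 6.02% CACGTG and 3.17% GTAAACA. Of the windows shown, those of Irs1 and Irs2 were also the more CpG-rich, with 28 and 34 CpG and a GC content of 72.4% and 72.8%. Akt2 had 10 CpG and 48.8% GC and Tbc1d4 9 CpG and 54.8% GC, against a median of 6 CpG and 52.4% GC over all promoters. The windows not shown were mixed. Pik3r1, not called, had 30 CpG and 76.4% GC in 1 window and 6 CpG and 42.4% GC in another. Foxo1, also not called, had 20 CpG and 56% GC, and the other Akt2 windows had 0, 5 and 2 CpG. Akt2 has 4 entries in the table, and which start these adipocytes used was not tested.

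Slc2a4 lies on mm10 chromosome 11 at 69942539 to 69948188, minus strand, and had the largest fall of the 8. Its level was 213, 193 and 281 CPM in L1L2-FF replicates 1 to 3 and 81.0, 49.8 and 64.6 CPM in L1L2-AKO replicates 1 to 3. Every library labelled L1L2-AKO was below every L1L2-FF library. The mean went from 229 ± 46.1 to 65.1 ± 15.6 CPM (SD, n = 3), which was 28.4% of the L1L2-FF level or 3.52-fold lower. On the log2 scale the change was -1.81 (SE 0.214, 95% interval -2.31 to -1.32, edgeR adjusted p = 0.00151), and 236 of 15674 tested genes had a lower value. Slc2a4 is also a gene of skeletal muscle and brown fat. Skeletal muscle markers summed to 73.5 to 118 CPM in L1L2-FF and 40.9 to 64.9 CPM in the libraries labelled L1L2-AKO. Of 6 tested, 0 were called, though all 6 were fitted lower, at a median log2 fold change of -1.25. Of 6 brown adipocyte markers, 2 (Cidea and Cox8b) fell. The fitted change was lower for 5 of these 6 and higher for 1, at a median of -0.86. Their sums were 320 to 648 CPM in L1L2-FF and 238 to 370 CPM in the libraries labelled L1L2-AKO. The part of muscle or brown cells in the Slc2a4 difference was not tested.

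Akt2, the AKT isoform most tied to insulin action in fat, lies on chromosome 7 at 27591552 to 27640826, plus strand. It stood at 385, 429 and 457 CPM in L1L2-FF and at 263, 204 and 250 CPM in the libraries labelled L1L2-AKO. No library of one genotype reached the range of the other. The mean fell from 424 ± 36.2 to 239 ± 30.8 CPM (SD, n = 3), to 56.4% of the control level, with a log2 fold change of -0.83 (SE 0.145, 95% interval -1.16 to -0.49, edgeR adjusted p = 0.00777). Of its 50-base transcript stretches, 9.76% also occur in the pseudogene Akt2-ps, which has its own row in the table, so reads shared by these loci could have been split.

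Tbc1d4, the AKT substrate that holds GLUT4 vesicles inside the cell until it is phosphorylated, lies on chromosome 14 at 101442360 to 101609191, minus strand. Its levels were 80.6, 76.2 and 98.9 CPM in L1L2-FF and 50.04, 49.1 and 54.4 CPM in the libraries labelled L1L2-AKO. The latter were tightly grouped and below all controls. The mean fell from 85.2 ± 12.1 to 51.2 ± 2.84 CPM (SD, n = 3), 60.0% of the control level, at a log2 fold change of -0.74 (SE 0.128, 95% interval -1.03 to -0.44, edgeR adjusted p = 0.00737). All 3 calls held in each fit that left out 1 library, with the highest edgeR adjusted p without L1L2-AKO replicate 2 for Akt2 (0.0415) and Tbc1d4 (0.0457).

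Insr, the insulin receptor, lies on chromosome 8 at 3122061 to 3279617, minus strand. It was at 158, 190 and 140 CPM in L1L2-FF and at 95.1, 116 and 147 CPM in the libraries labelled L1L2-AKO. The genotypes overlapped, since L1L2-AKO replicate 3 exceeded L1L2-FF replicate 3. Means were 163 ± 25.2 and 120 ± 26.3 CPM (SD, n = 3), and the log2 fold change of -0.44 (SE 0.186, 95% interval -0.87 to -0.02, edgeR adjusted p = 0.148) did not pass. Endothelial cells also carry the receptor, and their 8 markers summed to 1852 to 2505 CPM in L1L2-FF and 1083 to 2348 CPM in the libraries labelled L1L2-AKO. Their part in the Insr values was not tested.

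Irs1 and Irs2 are the docking proteins that link the receptor to PI3K. Irs1 lies on chromosome 1 at 82233101 to 82291416, minus strand, and was at 40.9, 41.2 and 29.8 CPM in L1L2-FF against 42.9, 43.2 and 52.2 CPM in the libraries labelled L1L2-AKO. All 3 of the latter were above all controls, by as little as the gap from 41.2 to 42.9 CPM. Means were 37.3 ± 6.49 and 46.1 ± 5.28 CPM (SD, n = 3), with a log2 fold change of 0.31 (SE 0.157, 95% interval -0.05 to 0.67, edgeR adjusted p = 0.232). Irs2 lies on chromosome 8 at 10984681 to 11008458, minus strand, and was at 98.7, 106 and 39.6 CPM in L1L2-FF and at 44.7, 82.9 and 120 CPM in the libraries labelled L1L2-AKO. Its range was nearly the same in both genotypes. Means were 81.3 ± 36.3 and 82.6 ± 37.8 CPM (SD, n = 3), and the log2 fold change was 0.02 (SE 0.424, edgeR adjusted p = 0.981). The 95% interval of -0.96 to 1.00 is wide enough to hold a difference as large as that of Akt2.

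Pik3r1 encodes p85α, the regulatory subunit that docks PI3K onto IRS proteins, and lies on chromosome 13 at 101680563 to 101768217, minus strand. Its levels were 295, 314 and 323 CPM in L1L2-FF and 218, 269 and 260 CPM in the libraries labelled L1L2-AKO. The genotypes did not overlap. Means were 311 ± 13.9 and 249 ± 26.9 CPM (SD, n = 3), with a log2 fold change of -0.32 (SE 0.128, 95% interval -0.61 to -0.02, edgeR adjusted p = 0.135). Foxo1, the transcription factor that AKT inactivates, lies on chromosome 3 at 52268336 to 52353221, plus strand. Its levels were 95.6, 104 and 105 CPM in L1L2-FF and 115, 120 and 140 CPM in the libraries labelled L1L2-AKO. All 3 of the latter were higher than all controls. Means were 102 ± 5.22 and 125 ± 13.2 CPM (SD, n = 3), and the log2 fold change of 0.30 (SE 0.118, 95% interval 0.03 to 0.57, edgeR adjusted p = 0.124) did not pass. Insr, Irs1, Irs2, Tbc1d4, Pik3r1 and Foxo1 overlap other annotated genes, and without a stated strand setting reads from the overlaps cannot be told apart.

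Levels of different genes were compared as TPM, a transcript level that also divides by exon length. In L1L2-FF the order of mean TPM was Slc2a4, Akt2, Pik3r1, Irs2, Insr, Foxo1, Tbc1d4 and Irs1, and only Akt2 and Pik3r1, Pik3r1 and Irs2, and Tbc1d4 and Irs1 were neighbours whose libraries did not overlap. Slc2a4 led with 190 ± 29.9 TPM, beside 172 TPM for Akt2. In the libraries labelled L1L2-AKO the order was Akt2, Pik3r1, Slc2a4, Foxo1, Irs2, Insr, Tbc1d4 and Irs1, with Akt2 and Pik3r1, Insr and Tbc1d4, and Tbc1d4 and Irs1 as the neighbours that did not overlap. Slc2a4 stood there at 57.9 ± 16.9 TPM, and Irs1 was lowest in both genotypes, at 11.9 and 15.4 TPM.

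Each of 7 member genes was set beside its closest relative within a library, where the scaling of libraries cancels. The smallest two-sided p of an exact permutation test over these 6 libraries is 0.1, so no pair could pass. Slc2a4 per TPM of Slc2a1, the basal transporter GLUT1, was 11.2, 12.4 and 20.01 in L1L2-FF against 4.31, 3.48 and 3.96 in the libraries labelled L1L2-AKO, a difference of -1.85 in the log2 ratio (exact permutation p = 0.1, adjusted p = 0.233 over the 7 pairs). Slc2a1 itself was at 16.3 ± 2.58 and 16.6 ± 2.26 CPM (SD, n = 3). For Akt2 over Akt1, the broadly used isoform, the TPM ratio was 1.34, 1.44 and 1.56 in L1L2-FF against 0.794, 0.612 and 0.830 in the libraries labelled L1L2-AKO (log2 difference -0.97, exact permutation p = 0.1, adjusted p = 0.233). Akt2 was above Akt1 in all 3 controls and below it in all 3 libraries labelled L1L2-AKO. Insr over Igf1r, the receptor for insulin-like growth factors, went from 20.2, 19.5 and 24.9 to 7.20, 8.60 and 10.6 (log2 difference -1.30, exact permutation p = 0.1, adjusted p = 0.233). Igf1r rose from 9.40 ± 2.52 to 16.5 ± 0.463 CPM (edgeR adjusted p = 0.0315). The other 4 pairs overlapped between genotypes: the log2 difference was -0.68 for Tbc1d4 over Tbc1d1, -0.28 for Pik3r1 over Pik3r2, 0.28 for Irs1 over Irs2 and 0.16 for Foxo1 over Foxo3, with exact permutation p from 0.2 to 0.5.

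**Figure D2:**
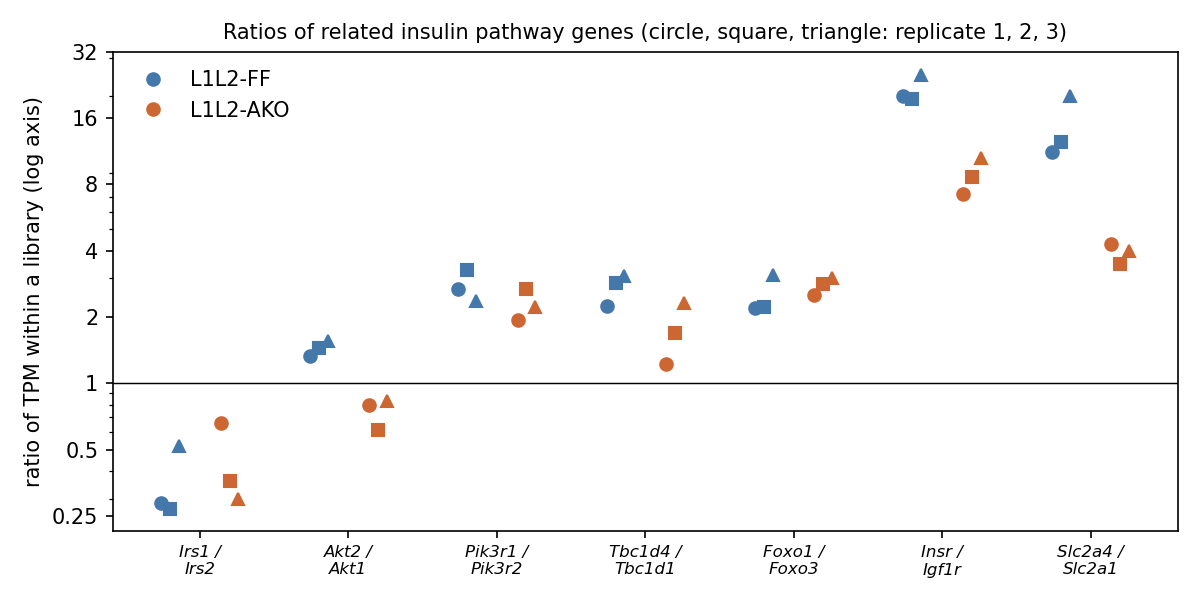
Ratio of each member gene to its relative in TPM (y axis, log scale) in each library of L1L2-FF and L1L2-AKO. The Slc2a4 to Slc2a1, Insr to Igf1r and Akt2 to Akt1 ratios do not overlap between genotypes. In TPM the Akt2 to Akt1 ratio lies above 1 in L1L2-FF and below 1 in L1L2-AKO. In CPM, not shown, it is above 1 in every library.

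The members were also read against adipocyte markers of the same library, as log2 CPM minus the mean log2 CPM of 12 markers. On this scale Slc2a4 was 1.03 log2 units lower in the libraries labelled L1L2-AKO, from -3.21, -3.12 and -2.77 to -3.72, -4.25 and -4.23, without overlap (difference -1.03, exact permutation p = 0.1, adjusted p = 0.2 over the 8 genes). Against these 12 markers Akt2 and Tbc1d4 differed little, by -0.04 and 0.06 (exact permutation p = 0.9 and 0.6). Irs1, Foxo1 and Pik3r1 lay above the controls on it without overlap, by 1.11, 1.09 and 0.47 (exact permutation p = 0.1, the smallest the design allows). Insr differed by 0.34 and Irs2 by 0.83 (exact permutation p = 0.2 and 0.3). The marker mean is pulled by Cfd, the adipsin gene, whose log2 fold change was -4.14. A narrower set was Plin1, Lipe, Cidec and Pnpla2, genes of the lipid droplet and of lipolysis. Against it the differences were -1.34 for Slc2a4, -0.35 for Akt2 and -0.24 for Tbc1d4 (exact permutation p = 0.1, 0.2 and 0.2). The difference was then 0.16 for Pik3r1, which overlapped the controls (exact permutation p = 0.5), 0.03 for Insr (exact permutation p = 0.9) and 0.52 for Irs2 (exact permutation p = 0.5). Irs1 and Foxo1 stayed above the controls without overlap, by 0.80 and 0.78 (exact permutation p = 0.1). Slc2a4 was lower on both scales, while the values of Akt2 and Tbc1d4 depended on the markers chosen.

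**Figure D3:**
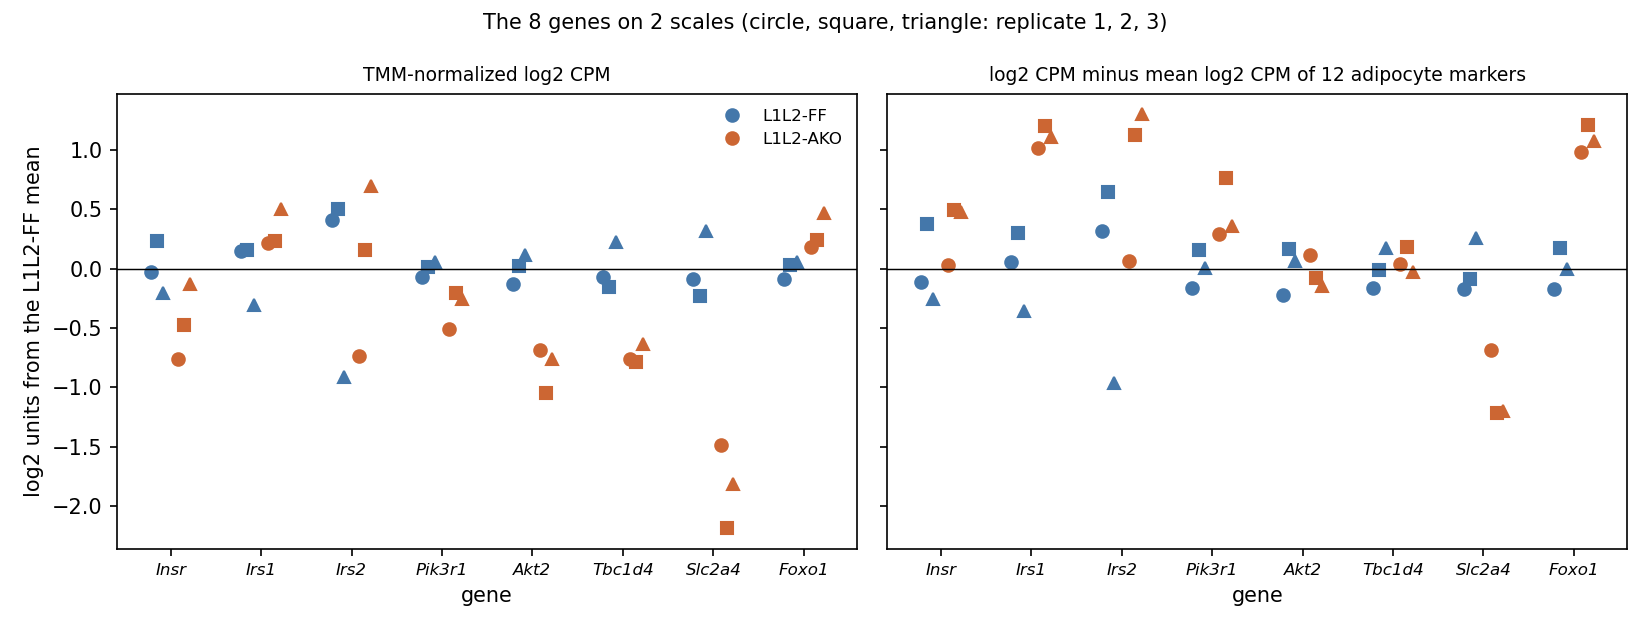
Distance of each library from the L1L2-FF mean (y axis, log2 units) for the 8 genes, on TMM-normalised log2 CPM (left) and relative to the mean of 12 adipocyte markers (right); points are libraries, with circle, square and triangle for replicates 1 to 3. Slc2a4 stays below the controls on both scales, while Akt2 and Tbc1d4 overlap the controls on the right.

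Beyond the members, 149 other genes of the insulin pathway were listed by role; 140 were tested, of which 17 rose, 22 fell and 101 did not pass by edgeR. That is 27.9% called, where 16.5% of all tested genes were called, and the median log2 fold change was -0.04. By role, the share called ran from 14.3% for the MAPK branch to 58.3% for glucose transporters and hexokinases. Some of these role lists also hold members. Among the genes that rose, Slc2a6 and Ppp1r3a passed the count filter through the libraries labelled L1L2-AKO, where they were higher. Among the 39 called genes, 14 passed in each of the 6 fits without 1 library and 25 lost the call in at least 1 of them. Of the latter, Slc2a6 passed in 0 of the 6 edgeR fits, and Tsc2, Phlpp2, Ptprf, Myo5a, Slc2a13 and Nras in 1. Igf1r, Pik3cb, Pygl, Fbxo32, Bcl2l11, Sesn1 and Mlxipl passed in 2 of the 6, and Gab1, Pik3cd, Pik3cg, Ccng2, Gys2, Pparg, Srebf1 and Hif1a in 3. Ptpn1 and Map2k1 passed in 4 and Hk3 in 5.

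Around the receptor, 3 of 13 tested genes rose, 1 fell and 9, the members Insr, Irs1 and Irs2 among them, did not pass. Sh2b2 (APS), an adaptor that binds the activated receptor, fell from 60.3, 64.3 and 65.8 CPM to 26.8, 27.9 and 29.5 CPM (log2 fold change -1.18, edgeR adjusted p = 4.95e-04). Dok1, an adaptor expressed in leukocytes too, rose by 1.10 on the log2 scale (edgeR adjusted p = 0.00779), as did Igf1r by 0.81 and the docking protein Gab1 by 0.63. The most abundant of the others were Shc1 and Grb2, adaptors to the RAS branch, at log2 fold changes of 0.13 and 0.05 (edgeR adjusted p = 0.419 and 0.827). The edgeR adjusted p reached 0.101 for Igf1r and 0.0922 for Gab1 without L1L2-FF replicate 1.

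Among 17 PI3K and AKT genes, 2 rose, 2 fell and 13 did not pass. Akt2 fell with Pik3cb, the catalytic p110β subunit (log2 fold change -0.96, edgeR adjusted p = 0.0199). Akt1 (log2 fold change 0.14, edgeR adjusted p = 0.437), Pdpk1, the kinase that activates AKT (-0.03, edgeR adjusted p = 0.905), and Mtor (-0.18, edgeR adjusted p = 0.273) did not pass. Pik3cd and Pik3cg, the catalytic subunits of leukocytes, rose by 0.87 and 0.86 on the log2 scale (edgeR adjusted p = 0.024 and 0.0242). Macrophage markers rose alongside them, from 237 to 458 CPM in sum to 837 to 942 CPM, and their part in these rises was not tested. Without 1 library the highest edgeR adjusted p was 0.0867 for Pik3cb (L1L2-AKO replicate 3), 0.0972 for Pik3cd and 0.0951 for Pik3cg (both L1L2-AKO replicate 2).

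Of 24 genes of GLUT4 vesicle traffic, 1 rose, 4 fell and 19 did not pass. That is 20.8% called, beside 16.5% of all tested genes. Beside Slc2a4 and Tbc1d4, Ralgapa2, a subunit of the complex that restrains RALA until AKT phosphorylates it, fell from 151, 135 and 150 CPM to 55.9, 40.3 and 55.0 CPM (log2 fold change -1.53, edgeR adjusted p = 7.55e-04). Rhoq (TC10), a small GTPase of insulin-stimulated vesicle docking, fell from 177, 170 and 238 CPM to 88.1, 73.4 and 77.8 CPM (log2 fold change -1.29, edgeR adjusted p = 0.0019). In both, no library of one genotype reached the other. Myo5a, a motor protein, rose by 0.44 on the log2 scale (edgeR adjusted p = 0.03, and 0.124 without L1L2-FF replicate 1). The abundant Sort1 (sortilin, of the GLUT4 storage vesicle) and the motor Myo1c were at -0.43 and 0.45 (edgeR adjusted p = 0.141 and 0.0894). Tbc1d1, the relative of Tbc1d4 that prevails in some muscles, was at -0.02 (edgeR adjusted p = 0.961).

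Of 18 genes listed as brakes on the pathway, 3 rose, 3 fell and 12 did not pass. Deptor, an inhibitor of mTOR complexes, rose from 193, 190 and 213 CPM to 422, 387 and 519 CPM (log2 fold change 1.16, edgeR adjusted p = 0.00217). Ptpn1 and Ptprf, phosphatases that act on the receptor, rose by 0.52 and 0.68 on the log2 scale (edgeR adjusted p = 0.014 and 0.039). Trib3, a pseudokinase that binds AKT, fell by 1.23 on the log2 scale (edgeR adjusted p = 0.00367). Phlpp2, a phosphatase of AKT, and Tsc2, which AKT inhibits, were lower by smaller amounts (-0.52 and -0.36). Abundant genes of this list without a call were Cav1 (-0.34, edgeR adjusted p = 0.352) and Ptpn11 (0.19, edgeR adjusted p = 0.398). Whether either acts as a brake in these cells was not tested. In fits without 1 library the highest edgeR adjusted p was 0.0737 for Ptpn1, 0.128 for Phlpp2 and 0.185 for Tsc2 (without L1L2-AKO replicate 2), and 0.114 for Ptprf (without L1L2-AKO replicate 3).

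FOXO factors and genes that they can activate numbered 19 tested, of which 1 rose, 4 fell and 14 did not pass. Pck1, the enzyme of glyceroneogenesis in fat, fell from 1954, 2198 and 1517 CPM to 366, 593 and 828 CPM (log2 fold change -1.67, edgeR adjusted p = 0.00878). Fbxo32, a ubiquitin ligase, Bcl2l11, the death factor BIM, and Ccng2, a cyclin of resting cells, were at -0.90, -0.83 and -0.60 (edgeR adjusted p = 0.0306, 0.0274 and 0.023). Sesn1, a stress-induced sestrin, rose by 0.54 on the log2 scale (edgeR adjusted p = 0.0292). Foxo3, Txnip and Pdk4 were at 0.13, 0.18 and -0.65 (edgeR adjusted p = 0.596, 0.694 and 0.207). Without 1 library the highest edgeR adjusted p was 0.114 for Fbxo32 (L1L2-AKO replicate 2), 0.109 for Bcl2l11 and 0.0859 for Ccng2 (L1L2-FF replicate 1), and 0.102 for Sesn1 (L1L2-AKO replicate 3).

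Among 11 metabolic AKT substrates, 3 fell (Tbc1d4, Pde3b and Tsc2), 0 rose by edgeR and 8 did not pass. Pde3b, the phosphodiesterase through which insulin restrains lipolysis, went from 357, 352 and 316 CPM to 124, 120 and 176 CPM (log2 fold change -1.29, edgeR adjusted p = 0.00243). The abundant Acly, the citrate lyase of fat synthesis, was at 306, 168 and 665 CPM and at 408, 232 and 296 CPM, with full overlap, and Gsk3b at 0.11 (edgeR adjusted p = 0.595).

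Glycogen genes, the store that insulin fills, had the lowest median of the pathway role lists at -0.52, with 4 of 16 tested lower, 1 higher and 11 not past the test. Ppp1r3c, which brings a phosphatase to glycogen, fell from 25.7, 19.1 and 30.3 CPM to 6.79, 7.07 and 4.82 CPM (log2 fold change -2.01, edgeR adjusted p = 0.00125). Pygb, a glycogen phosphorylase, fell by 1.10 and its relative Pygl by 1.44 on the log2 scale (edgeR adjusted p = 0.00231 and 0.0245). Gys2, a glycogen synthase, was at 3.00, 4.05 and 24.6 CPM in L1L2-FF, so that 1 library carried most of its mean, against 1.63, 0.952 and 0.873 CPM in the libraries labelled L1L2-AKO (edgeR adjusted p = 0.0348). The muscle subunit Ppp1r3a had counts of 4, 4 and 0 in L1L2-FF against 39, 32 and 34 in the libraries labelled L1L2-AKO (edgeR adjusted p = 0.00736). Pgm1 and Ugp2, enzymes on the way to UDP-glucose, were at -0.39 and -0.20 (edgeR adjusted p = 0.141 and 0.382). Gys2 reached an edgeR adjusted p of 0.126 without L1L2-AKO replicate 3 and Pygl 0.0918 without L1L2-AKO replicate 2.

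Glucose transporters and hexokinases included 12 tested genes, with 3 higher, 4 lower (Slc2a4 among them) and 5 not past the test. Slc2a12 (GLUT12) fell from 6.32, 3.59 and 3.45 CPM to 1.21, 0.983 and 1.22 CPM (log2 fold change -1.97, edgeR adjusted p = 0.00534). Hk2, the insulin-responsive hexokinase that traps glucose in the cell, fell from 102, 105 and 134 CPM to 65.0, 53.7 and 71.9 CPM (log2 fold change -0.84, edgeR adjusted p = 0.00964). Slc2a13, a proton-linked inositol transporter, was at -0.80 (edgeR adjusted p = 0.0258). Slc2a10 (GLUT10) rose by 1.12, Hk3 by 1.22 and Slc2a6 by 1.42 on the log2 scale (edgeR adjusted p = 0.00424, 0.0104 and 0.045). Hk3 and Slc2a6 are also genes of leukocytes, and macrophage markers rose in 9 of 10. Their part in both was not tested. Hk1 and Slc2a8 did not pass (-0.13 and -0.39, edgeR adjusted p = 0.744 and 0.0936). The highest edgeR adjusted p without 1 library was 0.0525 for Hk3 and 0.105 for Slc2a13 (L1L2-FF replicate 1) and 0.169 for Slc2a6 (L1L2-AKO replicate 2), whose call was lost whichever library was left out.

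Of 15 regulators of Slc2a4 transcription, 1 rose, 3 fell and 11 did not pass. Pparg, the nuclear receptor of fat cell identity, was at 384, 362 and 379 CPM and at 264, 239 and 246 CPM (log2 fold change -0.59, edgeR adjusted p = 0.0122). Srebf1 and Mlxipl (ChREBP), the factors of insulin- and glucose-driven lipogenesis, were at -0.73 and -0.72 (edgeR adjusted p = 0.0267 and 0.0342), and Hif1a rose by 0.71 on the log2 scale (edgeR adjusted p = 0.0179). Cebpa and Nfic did not pass (-0.37 and -0.40, edgeR adjusted p = 0.211 and 0.12). The highest edgeR adjusted p without 1 library was 0.0697 for Pparg, 0.113 for Srebf1 and 0.125 for Mlxipl (L1L2-AKO replicate 2) and 0.0854 for Hif1a (L1L2-FF replicate 1). Of 14 genes of the MAPK branch, Nras and Map2k1 rose by 0.43 and 0.55 on the log2 scale (edgeR adjusted p = 0.0437 and 0.0126) and 12 did not pass, Rps6ka3 among them (-0.12, edgeR adjusted p = 0.647). Without L1L2-FF replicate 1 the edgeR adjusted p was 0.144 for Nras and 0.0649 for Map2k1.

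**Figure D4:**
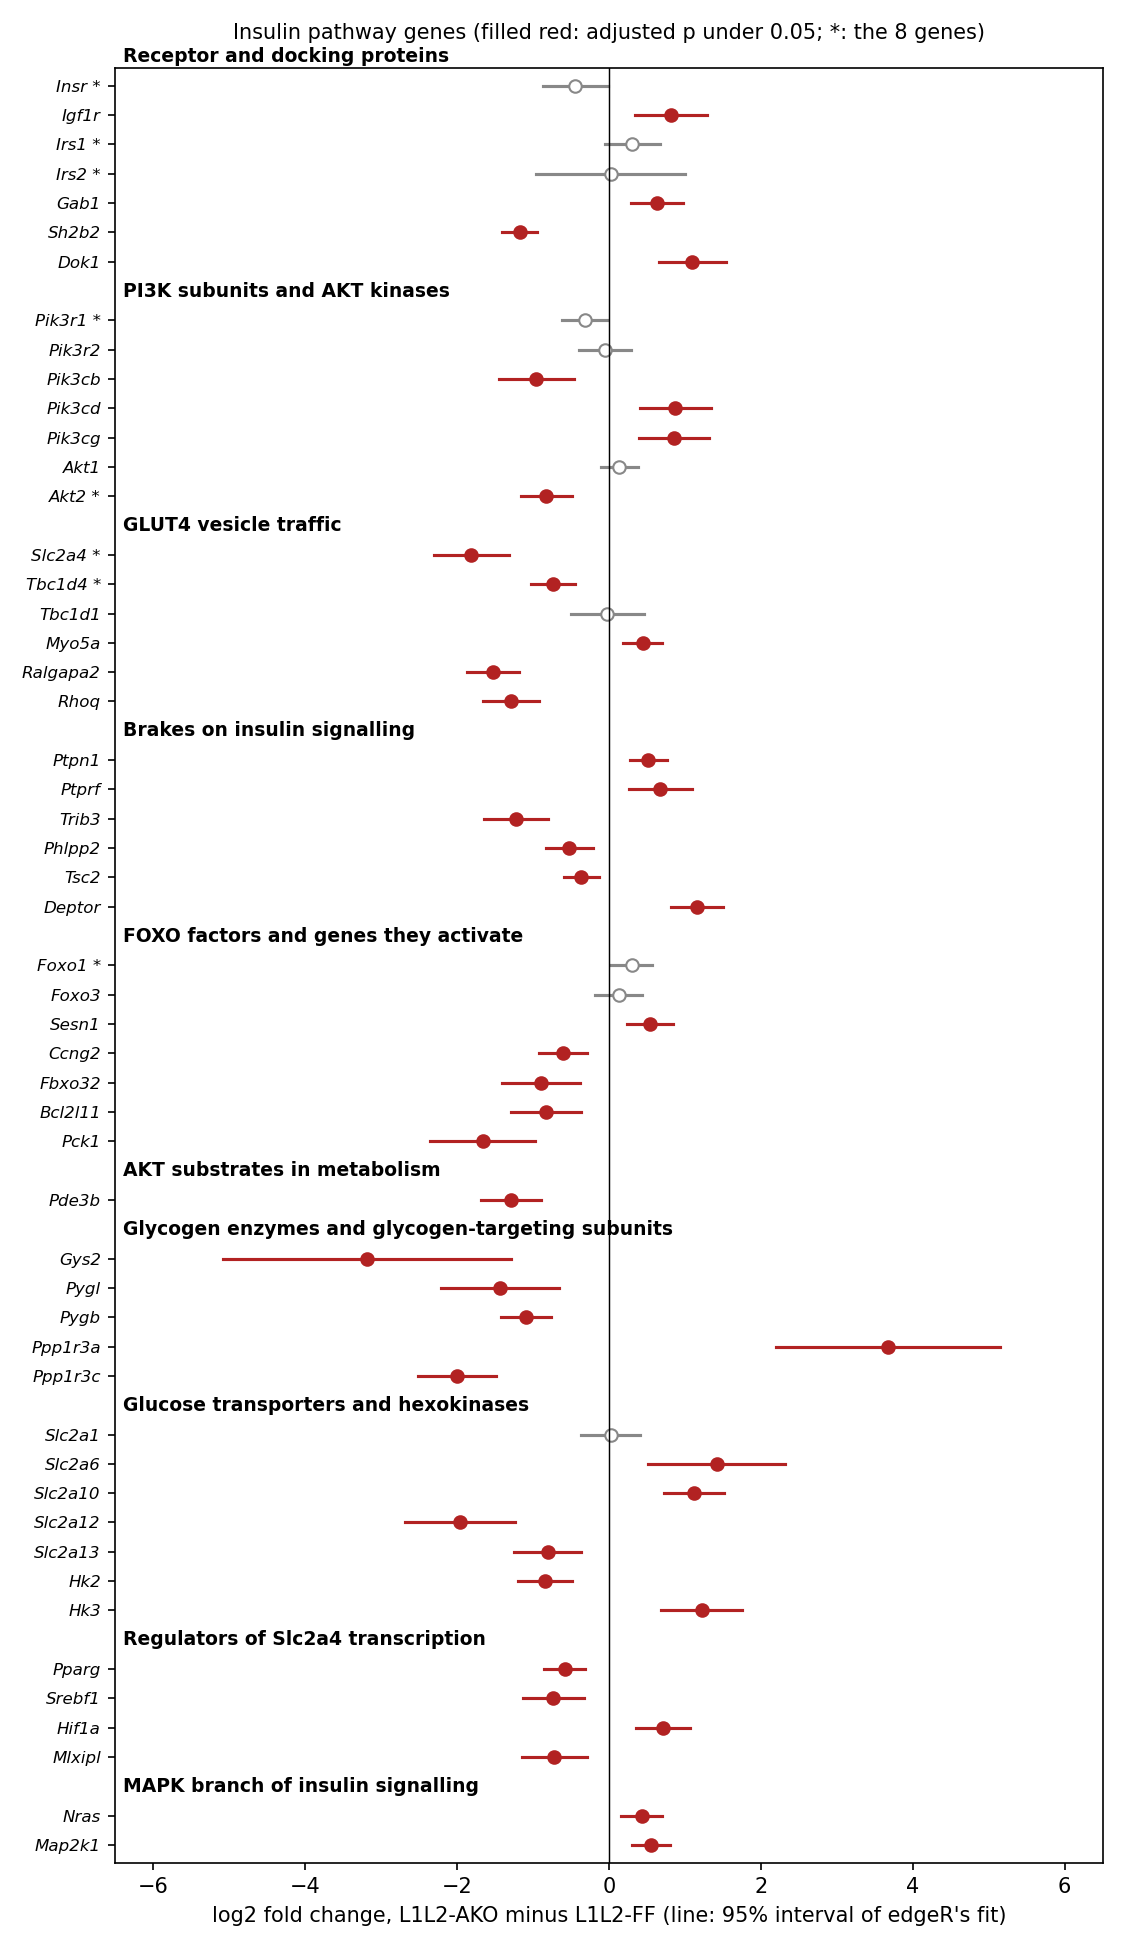
Log2 fold change of L1L2-AKO over L1L2-FF (x axis; points with 95% intervals of the edgeR fit) for the 8 members, the 39 called pathway genes and the relatives of the members, grouped by role (y axis); filled red points passed the threshold and an asterisk marks a member. Slc2a4, Akt2 and Tbc1d4 lie to the left of 0, and Ppp1r3a, with few counts, lies farthest to the right.

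Slc2a4 was also compared with all genes above a mean log2 CPM of 3 for likeness over the 6 libraries. Of 10067 genes compared, 692 had a Pearson r above 0.9, a likeness that includes the difference between genotypes itself. The closest were Ptgr2 and Gsto1 (r = 0.998 each), Acsl1 and Miga2 (r = 0.997 each) and Cdkn2c (r = 0.996), all on the same 6 libraries. Acsl1, the fatty acyl-CoA synthetase of fat cells, went from a mean of 3169 to 1090 CPM.

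Among the 8 members, replicates of one genotype spread most for Irs2, whose highest library was 2.67 times the lowest in L1L2-FF and 2.69 times in the libraries labelled L1L2-AKO. Low Irs2 libraries were L1L2-FF replicate 3 and L1L2-AKO replicate 1, which were also the lowest of their genotype for Insr. After removal of genotype means, the pathway genes most like Irs2 over the 6 libraries were Slc2a10 (r = 0.94), Gadd45a, Inpp5k, Txnip and Cdkn1b (r = 0.933, 0.933, 0.932 and 0.926), out of 147 compared. Those most opposed were Inppl1, Rhoq, Ppp1r3b, Foxo6 and Gys2 (r = -0.924, -0.89, -0.886, -0.88 and -0.875). This comparison was chosen after the values were seen and has no test. Ppp1r3b, a glycogen-targeting subunit, was at 123 CPM in L1L2-FF replicate 3 against 44.0 and 40.2 CPM in the other controls, and Slc2a4 was highest in that library too.

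**Figure D5:**
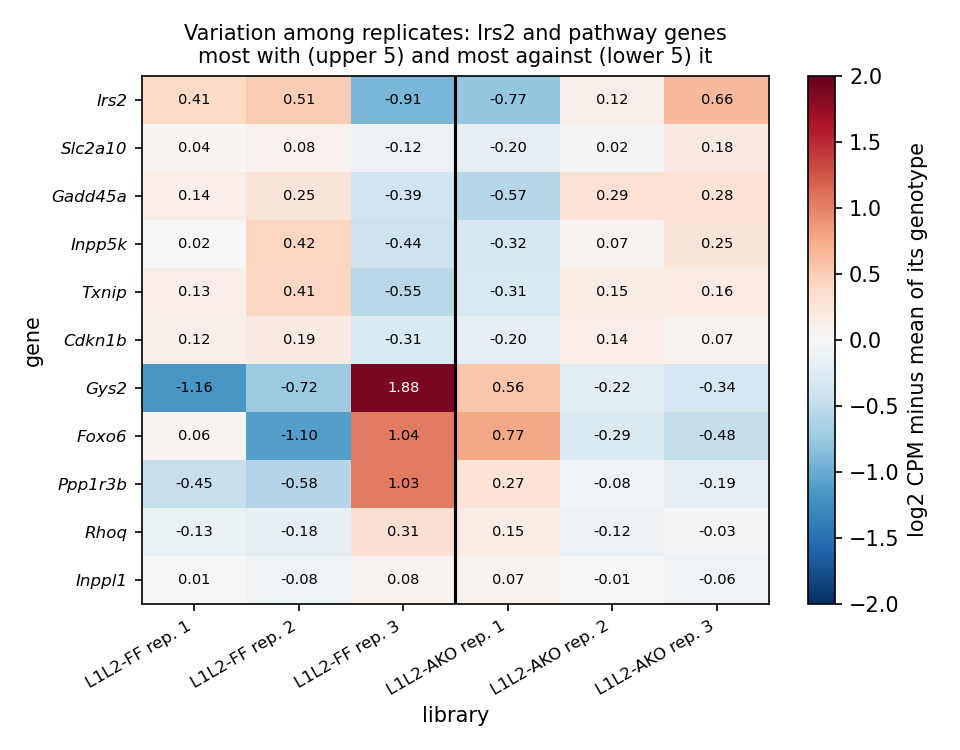
Log2 CPM minus the mean of the genotype (colour and printed value) for Irs2 and the 10 pathway genes most with or against it (rows) in the 6 libraries (columns). L1L2-FF replicate 3 and L1L2-AKO replicate 1 are low for Irs2 and the upper 5 genes and high for the lower 5.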

How the data were processed

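RNA was taken from adipocytes that floated after collagenase digestion of inguinal scWAT, so other cells clinging to them also contribute. The authors selected poly(A) RNA with oligo(dT), sequenced paired ends on a BGISEQ-500 and aligned to mm10. HISAT2 2.1.0 and StringTie 1.3.5 are named in the submitters' processing notes. The deposited table gives whole-number read counts for each gene symbol, not normalized. The annotation, counting program and strand setting are not given in the sources used here.

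Samples were grouped by their labels. Genes were kept with edgeR's filterByExpr by genotype (minimum count 10, total 15), leaving 15674 and dropping 21710, and tested two-sided with TMM factors and the quasi-likelihood test (R 4.3.3, edgeR 4.0.16). SE is the size of the log2 fold change over the root of F. Alternatives used limma 3.58.1 and DESeq2 1.42.0; Python 3.11.15 drew the figures. The main edgeR fit and the limma-voom and DESeq2 fits were also run on simulated data, and the other alternatives were not. TPM used union exon lengths of GENCODE M21, which matched 36961 symbols directly and 385 by synonym, with 38 not found; positions are from it.

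Depth was 30548473 to 32107917 counts a library, with 3 replicates a genotype and a common biological coefficient of variation of 0.206. Named genes are the members, the called pathway genes, the relatives of members and the 2 most abundant others of each list, of which 1 is not reported here. The members and lists were chosen with earlier results of these data known. Per the authors each library is a pool of 4 mice. No pair of replicates was alike within counting noise. Upstream bases come from RefSeq (GRCm38.p6).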

Additional observations from a re-analysis of the deposited data

How the results depend on the processing

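Of the 8 genes, Slc2a4, Akt2 and Tbc1d4 were the calls in the main test and in each of 16 alternatives: other size factors, library sizes without the 20 most abundant genes, DESeq2, limma-voom, robust fitting, other count filters, a replicate block and leaving out each library. Their log2 fold changes ranged from -2.002 to -1.64, -0.90 to -0.72 and -0.81 to -0.62. Irs2 changed sign in 5 of the 16 (-0.34 to 0.32) and passed the threshold in none of the 16, with adjusted p from 0.597 to 0.996. Insr, Irs1, Pik3r1 and Foxo1 kept their sign and were not called. The number of all genes called ran from 1281 to 2845 without 1 library, and of other pathway genes from 17 to 42 against 39 in full. Omitting L1L2-FF replicate 1 gave 18 pathway genes (1290 of all genes), omitting L1L2-AKO replicate 2 gave 17 (1281) and omitting L1L2-AKO replicate 3 gave 18 (1374), each fitted on fewer libraries. Other settings gave 37 to 46.

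The labels number the replicates alike in both genotypes. Deviations of same-numbered libraries from their genotype means correlated only weakly (r = 0.188, 0.255 and -0.0544). Libraries of unlike number gave r from -0.324 to 0.211. With 3 libraries a genotype these values cannot settle whether the number pairs them. With the replicate block 2514 genes were called, 3 of the 8 members and 37 other pathway genes. Against 4 adipocyte markers in place of 12, the difference was -1.34 for Slc2a4, -0.35 for Akt2, -0.24 for Tbc1d4, 0.16 for Pik3r1 and 0.78 for Foxo1.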
